A study of Drosophila melanogaster with 2 samples.

Results

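The region of the NK homeobox cluster on chromosome arm 3R was followed in haplotype-resolved Hi-C of whole Drosophila melanogaster embryos. It was taken as the 350 kb from 17100001 to 17450000 of 3R in dm3, the build of the files, and so comprised 700 bins of 1 kb over its maternal and paternal copies and 88 bins of 4 kb, of 59518 bins of 4 kb in the maps of the 5 large arms on both homologs. The position alone chose the bins, and no measured value did. The embryos were F1 hybrids of 2 to 4 h whose mothers were DGRP-057 flies and whose fathers were DGRP-439 flies, collected as 2 biological replicates with no other treatment or genotype. Each library pooled the cells of whole embryos, so values are averages over cell types and sexes. In the F1 diploid genome each homolog is a separate sequence, and the lines' own base differences assigned every read end to the maternal or the paternal copy. A pair of ends was called cis when both lay on the same homolog and trans-homolog when they lay on opposite homologs of 3R.

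The genes of this cluster encode homeodomain transcription factors of the NK class, and several of them pattern the embryonic mesoderm. Tinman (tin) specifies the heart and dorsal mesoderm, bagpipe (bap) the visceral mesoderm, and the ladybird genes (lbl and lbe) and slouch (slou) give identity to muscle and heart precursors, while C15 belongs to the same group of homeobox genes. RefSeq places them on 3R in the order tin, bap, lbl, lbe, C15 and slou, with 12 other annotated genes between tin and slou. That annotation is of another build than the files, so the genes were not placed on the bins and the name of the region was not checked against gene positions.

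In Hi-C maps a domain is a stretch of DNA whose parts contact each other more often than they contact the outside, and a boundary is the point where contacts across are fewest. Flies align their maternal and paternal chromosomes outside the germ line as well, so contacts also form between matching positions of the 2 copies. Trans-homolog maps can then show domains and boundaries of their own.

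The region held 193381 read ends in replicate 1 and 194944 in replicate 2. With separations under 3 kb removed, a 4 kb bin of the region had a median of 492.5 maternal and 489.5 paternal read ends, against 336 and 320 over all of 3R. Coverage within the region was uneven. Among the 88 bins of 4 kb, 9 had under 50 read ends on a homolog, and 6 of these lay in the first 36 kb, 1 at 276 kb and 2 at 332 and 336 kb from the start of the region. The outer parts of the region were thus measured at a lower depth than its middle, and from 12 to 36 kb, apart from the bin at 20 kb, no bin had more than 17 ends on a homolog.

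Pooled over both replicates, 24252 cis pairs and 1898 trans-homolog pairs of at least 3 kb had both ends in the region. The map of cis contacts had a wide domain in the middle of the region and a sharp change near 100 kb, and the trans-homolog map had its contacts along the same diagonal blocks.

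**Figure D1:**
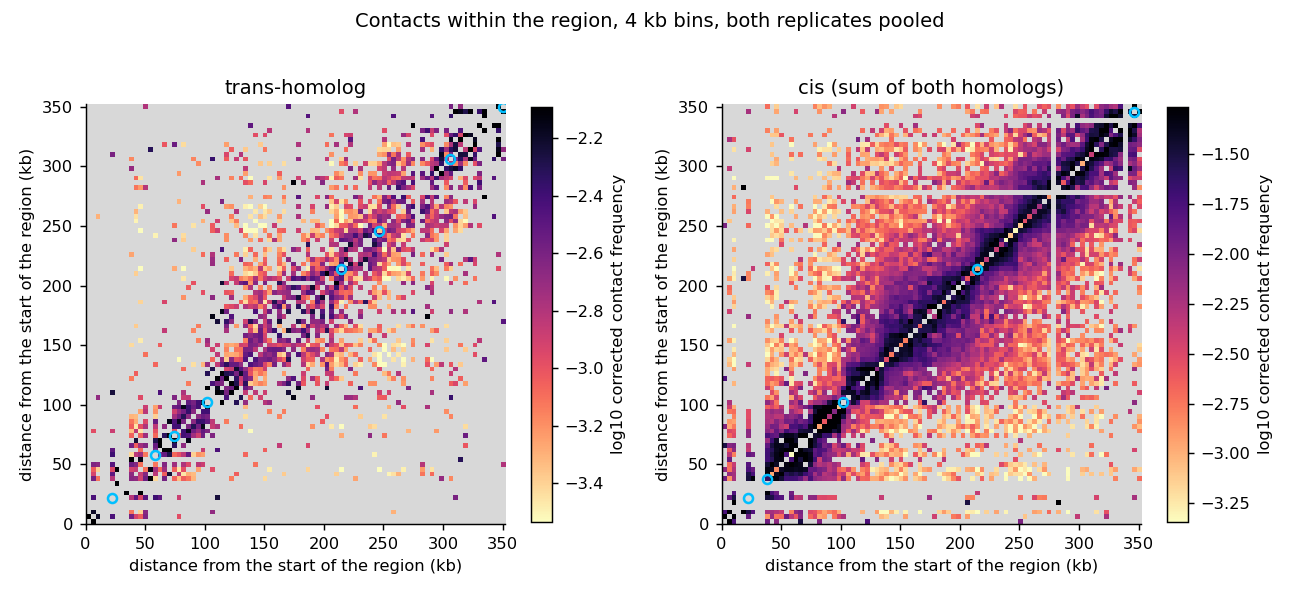
Corrected contact frequency (log10 scale, colour) between 4 kb bins of the region, pooled over 2 replicates, with trans-homolog contacts on the left and cis contacts on the right. Both axes give the distance from the start of the region in kb, grey pixels had no contact or a masked bin, and circles mark the 8 trans-homolog and the 5 cis boundaries called at 4 kb. Contacts across 100 kb were sparse in both maps.

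Cis insulation was scored in 1 kb bins as the log2 mean of corrected contacts across each bin, within 20 kb on either side, relative to the median of the 5 large arms. A low score means few contacts across the bin. Local minima with a prominence of at least 0.3 were called boundaries, unless they lay next to masked bins. In the region 279 of 350 bins had a score and 11 were boundaries, which is 3.94% of the scored bins, against 680 boundaries or 3.07% of 22145 scored bins over all of 3R. Among 73 other windows of the same size on 3R, the median was 9 boundaries and the range 2 to 15, so the region was not set apart by the number of its boundaries. Only 2 of its boundaries had a prominence of 1 or more, against a median of 3 in the other windows.

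The strongest boundary lay 246 kb from the start of the region (3R, 17346001 to 17347000). Its insulation score was -1.23 in replicate 1 and -0.99 in replicate 2, and it was -1.39 on the maternal and -1.13 on the paternal homolog. Its prominence was 1.97, and 29 of the 680 boundaries of 3R had a larger one. This boundary was found within 4 kb in each replicate and on each homolog, at a place where the 11 bins around it had a median of 275 read ends.

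The next in prominence lay at 134 kb (3R, 17234001 to 17235000, prominence 1.29). Its score was -0.70 in replicate 1 and -0.57 in replicate 2, with -0.59 on the maternal and -0.68 on the paternal homolog. The replicates and homologs differed here by little beside the depth of the minimum, and 124 boundaries of 3R had a larger prominence. In bins of 4 kb with a window of 40 kb, cis boundaries were called at 20, 36, 100, 212 and 344 kb, and neither the one at 246 kb nor the one at 134 kb was among them. The boundaries at 55 kb (0.92), 304 kb (0.90) and 82 kb (0.77) completed the 5 with the largest prominence. Of these, the one at 304 kb was found in both replicates and on both homologs, with scores of -0.23 in replicate 1 and -0.21 in replicate 2. The one at 55 kb was found in replicate 1 only and on neither homolog alone, and the one at 82 kb in replicate 1 and on both homologs.

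The other boundaries lay at 46, 74, 212, 273, 289 and 320 kb, with prominences of 0.30 to 0.73. Over all 11, 6 were found again in both replicates and 7 on both homologs, and 5 met both conditions, at 134, 212, 246, 289 and 304 kb. That is 45.5% of the boundaries of the region, against 31.8% of 669 boundaries elsewhere on 3R. In at least 1 replicate 9 of the 11 were found, or 81.8%, against a higher 90.4% elsewhere on 3R. The pooled map holds the reads of each replicate, so a match is not an independent finding. The bins of the boundaries at 46 and 320 kb, next to the stretches with few ends, had no insulation score in either replicate alone, so these 2 could not be checked at their own position.

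The deepest minimum of the region was not among these calls. At 103 kb (3R, 17203001 to 17204000) the insulation score fell to -1.74 in replicate 1 and -1.75 in replicate 2, and to -1.55 on the maternal and -1.91 on the paternal homolog, with a prominence of 2.87. It was left out because the bin or its neighbour was masked. The replicates differed by less at this place than at the boundary at 246 kb. Within 8 kb on the left and 12 kb on the right of the boundary that the 4 kb map called at 100 kb, 28 of 40 bins of 1 kb over both homologs were visible and all 20 positions had a score. A shallower minimum at 172 kb, with a prominence of 0.37, was left out for the same reason.

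The insulation profiles of the 2 replicates correlated with a Pearson r of 0.83 over 270 bins of the region, above each of the 73 other windows, whose median was 0.51. The maternal and paternal profiles correlated with an r of 0.68 over 277 bins, against a median of 0.45 in the other windows, and 86.3% of these were lower. Neighbouring bins share most of their contacts, and the number of read ends behind a window differed among windows, so these values describe the profiles and carry no test. The 2 homologs thus had like profiles of cis insulation in the region, with the deep minima at 103, 134 and 246 kb on both.

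**Figure D2:**
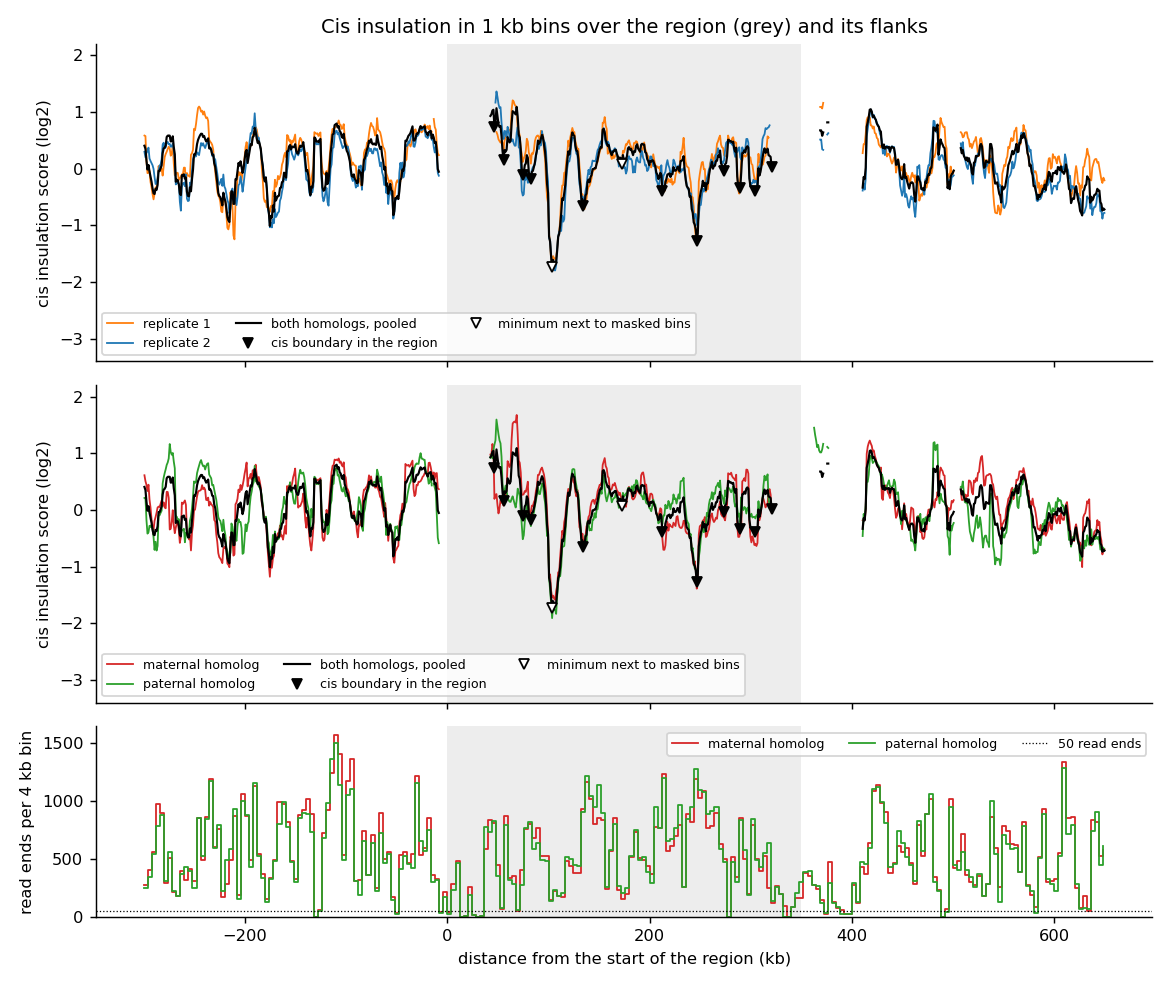
Cis insulation score (log2, 1 kb bins) along the region (grey band) and 300 kb on either side, for each replicate (top) and each homolog (middle), and read ends per 4 kb bin on each homolog (bottom), against the distance from the start of the region in kb. Filled triangles mark the 11 boundaries and open ones the minima at 103 and 172 kb next to masked bins, and the minima at 103, 134 and 246 kb were present in every curve.

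The boundaries enclosed 10 domains of 7 to 77 kb between 47 and 320 kb, and the outer parts of the region belonged to none. The longest ran from 135 to 212 kb (3R, 17235001 to 17312000) and held 4867 cis pairs of at least 3 kb, 2365 on the maternal and 2502 on the paternal homolog. Its mean cis contact was 1.61 times that expected on 3R at the same separations, 2.00 times in replicate 1 and 1.37 times in replicate 2. Contacts with the next domain, from 213 to 246 kb, were at 1.00 times the expected value, while those between the domains on either side of the boundary at 246 kb were at 0.71 times.

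The domain from 83 to 134 kb was at 0.89 times the expected contact, with 0.90 in replicate 1 and 0.87 in replicate 2. It holds the minimum at 103 kb, beside the boundary called at 100 kb in 4 kb bins, so its value averages across that minimum. The domain from 213 to 246 kb was at 1.14 and that from 247 to 273 kb at 1.00. The other 6 domains were 7 to 18 kb long and held 9 to 282 cis pairs, and with so few pairs the ratio of the domain from 47 to 55 kb was 0 in replicate 1 and 15.8 in replicate 2. The depth does not resolve these 6.

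Trans-homolog pairs made up 7.49% of the pairs of at least 3 kb in the region in replicate 1 and 7.05% in replicate 2. The mean was 7.27% ± 0.306 (SD, n = 2), against 5.55% ± 0.408 in the 300 kb on the left and 5.70% ± 0.0725 in the 300 kb on the right. Both replicates of the region lay above both replicates of either flank. With 2 values a side an exact permutation test cannot go below p = 0.333, so none was run. Counting error gave a 95% Wilson interval of 6.95% to 7.58% for the pooled share of the region, against 5.25% to 5.83% on the left and 5.37% to 6.05% on the right. The pairs were counted after removal of duplicates, and intervals cover counting error only.

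Set beside the other windows of 3R, the pooled share of 7.26% was above 67 of 73, whose median was 5.02% and whose range was 3.84% to 8.87%. The share was above 65 windows in replicate 1 and 67 in replicate 2. Of the 6 windows above the region, 5 ended 0.305 to 1.71 Mb from the distal end of 3R and the other began at 2400001. No window with a higher pooled share lay in the middle of the arm. The window from 12550001 to 12900000 there came close, at 7.17% pooled, with 7.44% in replicate 1 and 6.93% in replicate 2. Its pooled share lay within the Wilson interval of the region, so the region was not set apart from it. Within the 50 kb steps of the region the pooled share was lowest in the first (4.98%) and highest in the last (7.87%), and at 100 and 200 kb it was 7.68% and 7.41%. The Wilson interval of the first step, 3.67% to 6.70%, rested on 40 trans-homolog and 764 cis pairs. That of the last step, 6.31% to 9.79%, rested on 73 and 854 pairs and covered the shares at 100 and 200 kb. The replicates exchanged order among several steps.

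The ratio of trans-homolog to cis pairs in the region was above the median of the windows in each range of separation. At 3 to 100 kb there were 7.87 trans-homolog pairs per 100 cis pairs in replicate 1 and 7.47 in replicate 2, a mean of 7.67 ± 0.287 (SD, n = 2), against 5.82 ± 0.401 on the left flank and 5.95 ± 0.153 on the right. The pooled value of 7.66 was above 68 of 73 windows, whose median was 4.98. From 3162 to 4217 bp the region had 6.13 trans-homolog pairs per 100 cis pairs, against a median of 3.50 in the other windows, and 72 of these were lower. From 42170 to 56234 bp it had 10.7, against 6.47, above 69 windows. The ratio rose with separation in the region as in the other windows, and above 237137 bp it rested on 11 trans-homolog pairs.

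**Figure D3:**
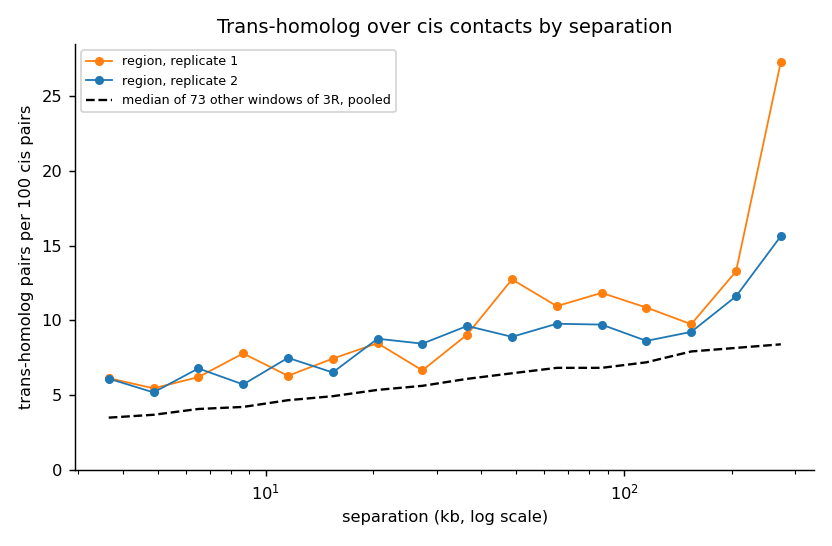
Trans-homolog pairs per 100 cis pairs against separation (kb, log scale) in the region for each replicate, beside the median of 73 other windows of 3R with the replicates pooled. Both replicates lay above the median of the windows in every range, and the last range rests on 11 trans-homolog pairs.

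Homolog misassignment, by which an end is put on the wrong homolog, was taken as the inward trans-homolog pairs per inward cis pair at 300 to 600 bp, a rate per pair and not per end. Such pairs come mostly from unligated DNA of a single molecule. In the region misassignment was 0.179% in replicate 1 and 0.187% in replicate 2, from 82 and 85 such trans-homolog pairs, and 0.124% and 0.144% on the left flank and 0.368% and 0.383% on the right. The region lay in the middle of the windows of 3R by this measure, with 37 of 73 lower. With the misassigned pairs subtracted, the ratio at 3 to 100 kb was 7.47 and still above 68 windows.

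The pairing score is the log2 mean corrected trans-homolog contact in a square of 7 by 7 bins of 4 kb around a position. Its median over the region was -9.10 in replicate 1 and -9.05 in replicate 2, and -9.02 with the replicates pooled. On the left flank the pooled median was -9.35, on the right flank -10.16, and over all of 3R -9.96. The region thus lay above both flanks, and its median was higher than in 70 of 73 windows, which is the 95.9th percentile. In bins with at least 50 read ends on each homolog, the median was -9.07 in the region, against -9.43 on the left, -10.16 on the right and -9.92 over 3R. All 78 such bins of the region were above the median of 3R in the pooled map, 73 in replicate 1 and 77 in replicate 2, and 31 were above its 90th percentile.

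**Figure D4:**
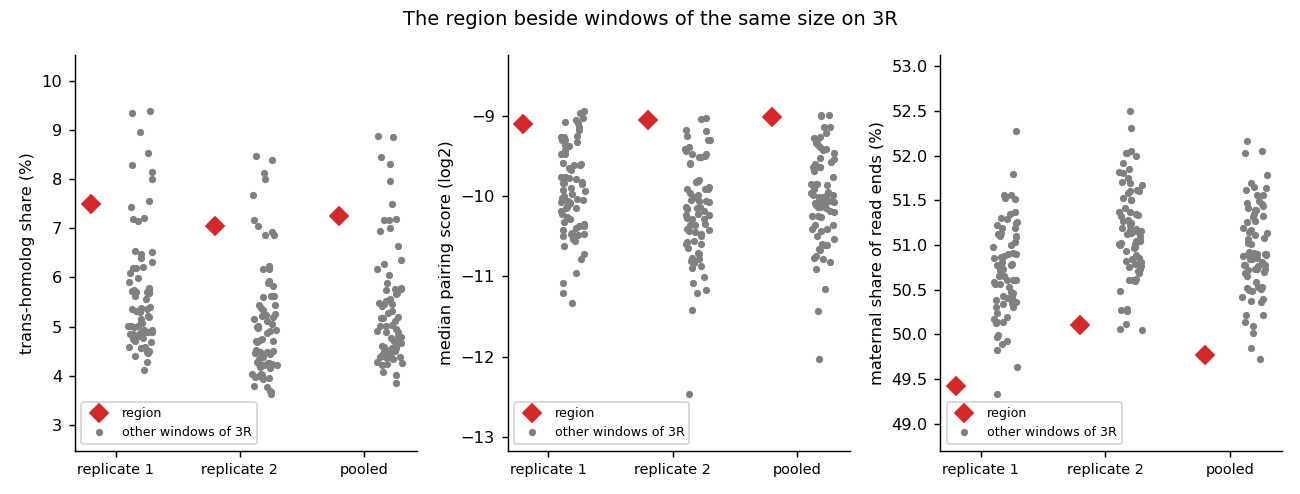
The trans-homolog share of pairs of at least 3 kb (left), the median pairing score (middle) and the maternal share of read ends (right) of the region (diamonds) and of 73 other windows of 350 kb on 3R (points), in each replicate and pooled. The region lay near the upper end of the windows for the first pair of measures, at 7.26% and -9.02 pooled, and near the lower end for the last, at 49.8%.

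Of the 5 bins with the highest pairing score, 3 lay at 20, 24 and 36 kb, with pooled scores of -4.72, -4.71 and -5.22, within or beside the stretch with few ends. The bin at 24 kb had 17 maternal and 15 paternal ends, that at 20 kb 254 and 186, and that at 36 kb 582 and 771. The bin at 36 kb scored -10.41 in replicate 1 and -9.04 in replicate 2 alone. The bin at 24 kb scored -10.69 in replicate 2 only, and the bin at 20 kb in neither replicate. The squares of these 3 bins share 1 pixel between the bins at 24 and 32 kb, with 449 times the expected trans-homolog contact. Without bins under 50 read ends, the bin at 36 kb scored -9.41 and those at 20 and 24 kb had no score. The other high bins lay at 72 kb, with -7.65 in replicate 1 and -8.62 in replicate 2, and at 120 kb, with -8.46 and -8.05. These had 276 to 497 ends on a homolog.

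The lowest bin, at 16 kb (-10.28), had 8 maternal and 9 paternal ends, and the next lowest lay at 160, 252, 164 and 176 kb with -9.68 to -9.51. These 4 lay in the long domain from 135 to 212 kb and just beyond the boundary at 246 kb. Without bins under 50 read ends, the 5 lowest lay at 328, 160, 8, 252 and 164 kb, with -9.71 to -9.58. Those at 328 and 8 kb lay in the outer parts of the region. Across the 78 well-covered bins the score of replicate 1 correlated with that of replicate 2 with a Pearson r of 0.26, against a median of 0.32 in the other windows. The level of the region was therefore alike in the replicates, while the order of bins within it was less so.

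**Figure D5:**
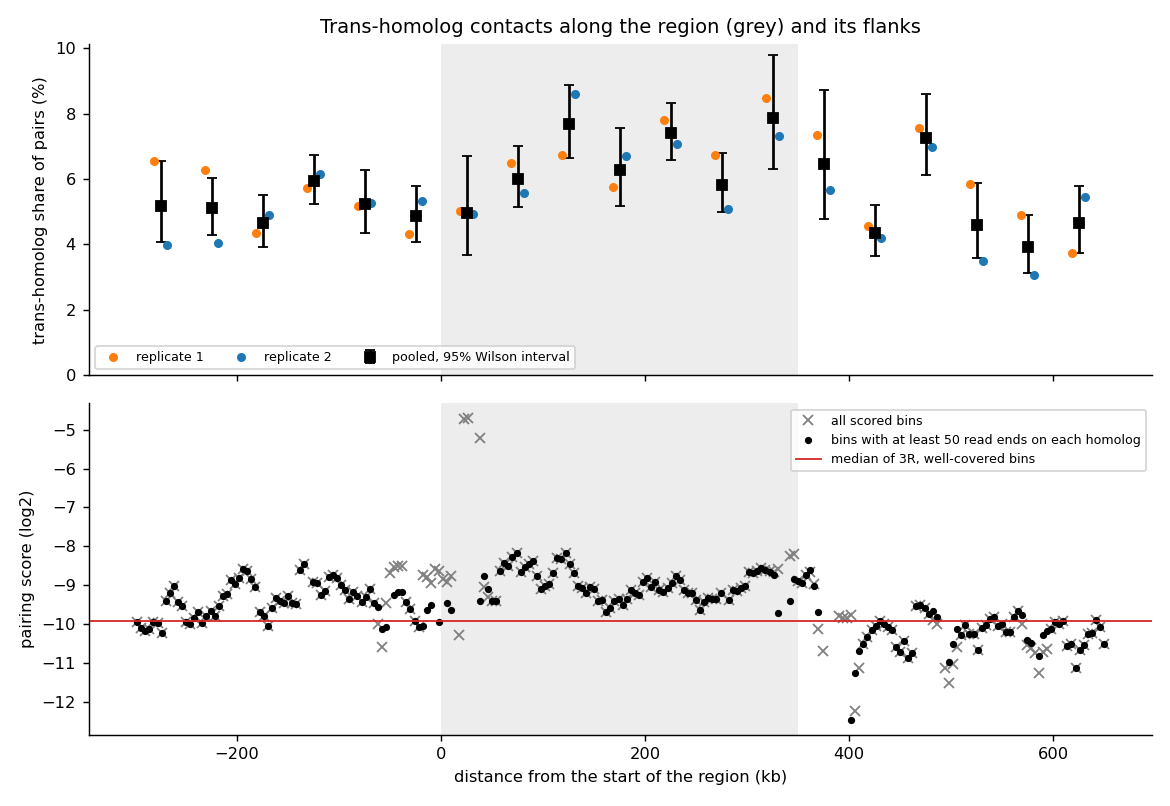
Trans-homolog share of pairs of at least 3 kb in steps of 50 kb (top, %) and pairing score in 4 kb bins (bottom, log2) along the region (grey band) and its flanks, against the distance from the start of the region in kb. Squares are pooled shares with 95% Wilson intervals, coloured points are the replicates, crosses are all scored bins and dots are bins with at least 50 read ends on each homolog. The dots of the region lay above the median of 3R (line, -9.92), and the 3 crosses near -5 lay within or beside the stretch with few ends.

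Trans-homolog boundaries were called in 4 kb bins with a window of 40 kb. There were 8 in the region, which is 9.09% of 88 scored bins, against 563 or 8.85% of 6359 over all of 3R. The largest prominence was 4.48 at 348 kb, at the right edge of the region, followed by 3.12 at 100 kb and 3.11 at 20 kb, and 7, 30 and 31 of the 563 boundaries of 3R had a larger one. The others lay at 56, 72, 212, 244 and 304 kb, with prominences of 0.39 to 1.00.

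At 100 kb the trans-homolog score was -2.99 in replicate 1 and -1.18 in replicate 2, and at 348 kb it was -2.55 and -4.27. Both were low in each replicate, by unequal amounts. At 212 kb the score was 0.12 and 0.29, so that this was a shallow dip between higher values. The boundaries at 20 and 348 kb lay beside the stretches with few ends, and without the bins under 50 read ends the one at 20 kb was not called while the one at 348 kb was.

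A cis boundary called in the same 4 kb bins was found within 4 bins of 4 of the 8, those at 20, 100, 212 and 348 kb. This overlap has no share of 3R beside it, so it is not shown to differ from the rest of the arm. Without bins under 50 read ends, neither the cis nor the trans-homolog boundary at 20 kb was found. The trans-homolog boundary at 244 kb fell on the strongest cis boundary of the 1 kb map, and that at 304 kb lay 2 kb from one. Each was found again in 1 replicate only, the one at 244 kb in replicate 1 and the one at 304 kb in replicate 2. Both were weak, with prominences of 0.39 and 0.56, and 458 and 366 of the 563 boundaries of 3R had a larger one. Of the 11 cis boundaries at 1 kb, 8 had a trans-homolog boundary within 16 kb, or 72.7%, against 65.8% of those elsewhere on 3R. The 2 insulation profiles at 4 kb correlated with an r of 0.71 over 88 bins, against a median of 0.62 in the other windows.

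Read ends of the region joined the region itself more often than in most windows. Among ends of pairs of at least 3 kb or between arms, 60.6% in replicate 1 and 58.6% in replicate 2 had their partner inside, against a pooled median of 50.8% in the other windows. The pooled value of 59.6% was above 70 of 73. The 300 kb on the left took 3.51% of the ends and the 300 kb on the right 2.68%, against 5.66% and 5.74% in the median window, and 12 and 2 windows were lower. The rest of 3R took 19.0% and other arms 15.3%.

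In corrected 10 kb pixels, cis contacts between the region and its left flank were at 0.58 times the value expected at their separation in replicate 1 and 0.62 times in replicate 2. Those with the right flank were at 0.60 and 0.63 times, and contacts inside the region at 0.82 and 0.80 times. The pooled values of 0.60 and 0.61 for the flanks compare with medians of 0.91 and 0.90 in the other windows, of which 4 were lower in each case. The low contact of the region with both flanks was therefore also present after correction for coverage. A high value inside was not, since the pooled cis value of 0.81 lay below the median of 0.96 in the other windows. Bins with few ends lie near both edges, and their part in the low flank values was not tested.

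Trans-homolog contacts inside the region were at 1.14 times the expected value in replicate 1 and 1.13 times in replicate 2, above 57 of 73 windows pooled. With the left flank they were at 0.65 and 0.61 times and with the right at 0.71 and 0.84 times, above 13 and 27 windows. Inside the region trans-homolog contacts thus ranked higher than cis contacts among the windows, since 16 windows had a lower cis value inside.

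No pixel of 10 kb inside the region met the rule for an enriched contact, which asked for at least 2 times the expected cis contact and 5 pairs in each replicate at 50 kb or more. Of 465 pixels tested, 113 had 5 pairs in each replicate, and the highest pooled ratio among these was 1.89. On all of 3R 1331 of 76780 pixels met the rule, or 1.73%, and 12750 had 5 pairs in each replicate. Among the pixels with that many pairs the median pooled ratio was 1.10 in the region, against 1.29 on 3R. That condition keeps pixels by their own counts, and it kept 113 of 465 in the region and 12750 of 76780 on 3R. These medians are therefore not like for like. The other pixels of the region could not meet the rule at their depth.

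At 1.5 times the expected value, 5 pixels met the rule, 1.08% of those of the region, against 4.37% of those of 3R. The highest joined 150 with 200 kb, at 2.02 times in replicate 1 and 1.79 in replicate 2 with 37 and 43 pairs, and 4 of the 5 joined bins at 130 to 150 kb with bins at 190 and 200 kb, at opposite ends of the long domain from 135 to 212 kb. At these 4 pixels trans-homolog contacts were at 2.50 to 3.36 times the expected value, from 9 to 14 pairs each. The fifth joined 130 with 310 kb at 1.74 times, with 9 pairs in replicate 1 and 10 in replicate 2.

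Beyond 300 kb, 9 pixels of 50 kb between the region and the rest of 3R were enriched by the same rule, 0.255% of 3528, against 0.289% of 133392 pixels of 3R. The share was near that of the arm, and the pixels held 10 to 16 pairs. At a mapping quality of at least 30, which kept 2629052 of the 11346667 pairs in the maps, no pixel met the rule. With the rule asked of 1 replicate only, 41 pixels met it in replicate 1 and 73 in replicate 2. Those counts have no share of 3R beside them, unlike the 9 pixels of the main rule. The 5 with the highest ratio joined 200 kb with 12000001 to 12050000 (3.58 times, 11 pairs), 300 kb with 21050001 to 21100000 (3.19 times, 10 pairs), 200 kb with 9650001 to 9700000 (2.99 times, 14 pairs), 100 kb with 12200001 to 12250000 (2.96 times, 16 pairs) and 200 kb with 12700001 to 12750000 (2.68 times, 15 pairs). All but the second lay on the side of the centromere, and the last lies in the stretch that the study's probes used for the bithorax complex (BX-C), the cluster of Hox genes of the posterior body.

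Contacts of the region with that whole BX-C stretch were counted against placements of the same sizes and separation along 3R, scaled by their read ends. In replicate 1 there were 182 pairs, against 110 expected, and in replicate 2 231 against 147, ratios of 1.66 and 1.58. Pooled, cis pairs numbered 306 at a ratio of 1.56 and trans-homolog pairs 107 at a ratio of 1.75. The pooled ratio of 1.61 was above 184 of 206 placements, which overlap each other and range from 0.559 to 2.90. Contact with BX-C was thus above the average for its separation in both replicates, and it was not the highest ratio on the arm.

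Other arms took 14.6% of the read ends of the region in replicate 1 and 15.9% in replicate 2, a mean of 15.2% ± 0.928 (SD, n = 2), against 15.1% ± 1.00 on the left flank and 15.7% ± 1.11 on the right. Within replicate 1 the share was 14.6% in the region, against 14.4% on the left and 14.9% on the right, and within replicate 2 it was 15.9%, against 15.8% and 16.5%. The region thus lay between its flanks in each replicate, and 35 of 73 windows were lower. The partners were 3L (36.7% of these ends), 2L (24.5%), 2R (23.3%) and X (14.5%), against medians of 37.0%, 24.9%, 23.4% and 12.8% in the other windows. None of 13411 ends joined chromosome 4, and 131 joined other sequences. Pairs with the other autosomal arms joined homologs of the same parent in 55.8% of 11339 cases, 54.3% in replicate 1 and 57.1% in replicate 2. No such share was taken for the flanks or the other windows, so this value is not shown to be particular to the region.

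The maternal homolog received 49.4% of the read ends of the region in replicate 1 and 50.1% in replicate 2. The mean was 49.8% ± 0.479 (SD, n = 2), against 51.2% ± 0.336 on the left flank, 50.7% ± 0.137 on the right and 50.9% ± 0.321 over all of 3R. The pooled share was lower than in 72 of 73 windows, whose range was 49.7% to 52.2%. Among cis pairs of at least 3 kb the maternal share was 48.0% in replicate 1 and 48.6% in replicate 2, against a pooled median of 51.2% in the other windows. The step of 300 to 350 kb had the lowest maternal share of ends, 47.4%, and the step of 100 to 150 kb the next, 48.1%. The range between windows was a few percentage points, and the part of unequal mapping of the 2 lines was not tested.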

How the data were processed

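Haplotype-resolved Hi-C covered 2 biological replicates of F1 hybrid embryos. The authors aligned the reads with BWA 0.7.15 to the F1 genome with both homologs, based on dm3, and retained unique, deduplicated pairs. The deposited files list pairs with the positions of both ends and their mapping quality, a score deposited as the aligner gave it, and replicates were deposited separately. Replicate 1 held 24390496 pairs and replicate 2 held 24659056. The region, the genes and the settings were chosen with earlier results of these data known, and the loci named are all boundaries, the domains between them, the 5 highest and 5 lowest pairing scores and the enriched pixels with the highest ratios.

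Maps pooled the replicates, used 11346667 pairs of at least 3 kb on the 5 large arms, masked bins under a MADmax of 7 and were corrected iteratively to a relative variance of 1e-05 or for 300 rounds. Of 21 corrected maps, 8 ran to the last round without reaching that variance. They included the 1 kb maps and the 4 kb map of replicate 1 (7.8e-05). At a mapping quality of at least 30, the 4 and 10 kb maps were among them too. The pooled 1 kb map ended at a variance of 0.279, and 99.8% of its visible bins then lay within 10% of the mean. Boundaries used a prominence of 0.3 and the pairing score W = 3. Other windows of 350 kb entered where at least 50% of their bins had a score. With 1 condition nothing was tested, and ranks among windows are descriptions. Alternatives changed the replicates, the mapping quality, the correction, the bins and the thresholds. The calculations were tested on simulated data. Gene names and order came from RefSeq. No ChIP or FISH data were used here. Python 3.11.15, numpy 2.4.6, scipy 1.17.1, statsmodels and matplotlib 3.10.9 were used.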

Additional observations from a re-analysis of the deposited data

How the results depend on the processing

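The trans-homolog share of the region was 7.05% to 7.49% with either replicate left out, 7.16% at a mapping quality of at least 30 and 8.04% with separations under 10 kb removed. The ratio to cis contacts was 7.47 to 7.87 without either replicate. The median pairing score was -9.10 to -9.05 with either replicate left out, -9.24 at a mapping quality of at least 30, -8.76 without iterative correction, -9.13 at W = 1, -10.31 with separations under 10 kb removed and -9.07 without bins under 50 read ends, the last an alternative chosen after seeing the data. Its percentile among windows was 91.8 to 97.3 without either replicate, 87.7 at a mapping quality of at least 30, 91.8 without correction and 90.4 without separations under 10 kb. The number of cis boundaries was 9 to 10 without either replicate, 7 without correction, 5 with a window of 40 kb, 17 and 7 at prominences of 0.1 and 0.5, and 5 in bins of 4 kb. The number of trans-homolog boundaries was 9 without either replicate and 13 with a window of 20 kb. Enriched 10 kb pixels numbered 5 to 6 in a replicate alone, 40 without correction and 5 at a fold of 1.5. The 50 kb pixels numbered 41 to 73 in a replicate alone and 0 at a mapping quality of at least 30. They numbered 30 without correction and 23 at a fold of 1.5. At that fold 1.08% of the 10 kb pixels of the region met the rule, against 4.37% over the whole arm. The 23 pixels of 50 kb were out of 3528, a lower share than the 1.01% of 133392 over the arm. Counts in a replicate alone and without correction have no share of the arm beside them. A mapping quality of at least 30 gave a maternal share of 49.2% and a misassignment of 0.0346%. The cause of these moves was not tested. Other arms took 14.6% to 15.9% of ends without either replicate, the maternal share was 49.4% to 50.1% and misassignment 0.179% to 0.187%.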
